A study of Mus musculus with 12 samples.

Results

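The 10 genes described here encode the vascular endothelial growth factor (VEGF) and angiopoietin signalling pairs of blood vessels: the ligands Vegfa, Vegfb, Vegfc, Vegfd and Pgf, the angiopoietins Angpt1 and Angpt2, and the receptor tyrosine kinases Flt1, Kdr and Tek. They were chosen by name, and all 10 were found among the 52636 genes of the count table. All 10 also passed the filter on low counts, which left 22320 genes to be tested.

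VEGF ligands are secreted by many cells of the vessel wall and act mainly on endothelial cells. Vegfa binds both Flt1 (VEGF receptor 1) and Kdr (VEGF receptor 2, the main signalling receptor for angiogenesis), Vegfb and Pgf (placental growth factor) bind Flt1, and Vegfc and Vegfd are the ligands of Flt4 on lymphatic endothelium. Angpt1, typically made by the mural cells around a vessel, activates Tek (the endothelial receptor Tie2) and keeps the endothelium quiet, whereas Angpt2 often opposes it.

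Bulk RNA-seq was performed on smooth muscle cells (SMCs) sorted for GFP from the thoracic aorta of 12-week-old male C57BL/6J mice. GFPiSMC mice carried Myh11-CreERT2 and the mT/mG reporter, which turns on GFP in cells where Cre has acted, and had intact TGF-β receptors. Tgfbr1/2iSMCKO mice carried the same transgenes with homozygous floxed Tgfbr1 and Tgfbr2. Both genotypes received tamoxifen for 5 days, so that the controls share Cre activation and the drug. The labels name 2 regimens, 1 mg/d at 4 weeks or 2 mg/d at 11 weeks of age, and the study's methods and its account of these libraries as taken a week after receptor loss place them in the regimen of 2 mg/d at 11 weeks. The Myh11 promoter directs Cre to smooth muscle, and its transgene lies on the Y chromosome, which limits the model to males. From each of 3 mice per genotype, 1 library was made from the ascending aorta and arch and 1 from the descending thoracic aorta, giving 12 libraries in 4 groups.

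The libraries held 20467027 to 31392396 counts from 9208 to 20000 sorted cells. SMC genes were abundant in every library, with Acta2 (smooth muscle actin) at 20500 to 31900 counts scaled to library size (CPM) and Myh11 at 2270 to 3930 CPM. Whole-gene counts of the targeted receptors did not differ between genotypes (log2 fold change 0.10 ± 0.12 (SE), adjusted p = 0.790 for Tgfbr1 and −0.26 ± 0.11, adjusted p = 0.233 for Tgfbr2), and such counts include exons outside the deleted part, so they do not check the deletion. The TGF-β target Ccn2 had 3920 to 7390 CPM in GFPiSMC and 28.1 to 208 CPM in Tgfbr1/2iSMCKO libraries, and Pmepa1, another target, also fell (289 to 374 against 29.6 to 38.3 CPM). Not all listed targets fell: the median log2 fold change of the 10 TGF-β response genes was −0.793, with 2 of the 10 above 0. Of the 6 defining endothelial markers, Pecam1 had 44.4 to 95.7 CPM, Erg 5.99 to 21.7 CPM, Vwf 1.53 to 12.7 CPM, Nos3 0.330 to 2.06 CPM, Cldn5 0.105 to 1.61 CPM and Cdh5 0 to 2.71 CPM.

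Between genes, levels were compared as CPM per kilobase of exon. In GFPiSMC libraries Angpt2 (24.2 ± 6.29 CPM per kb, SD, n = 6) and Vegfd (22.3 ± 14.5) were the highest, followed by Vegfb (8.76 ± 2.01). The ranges of Angpt2, Vegfd and Vegfb overlapped from one to the next, while Vegfb lay apart from Vegfa, the next in order, at 1.95 ± 0.405 CPM per kb. Pgf (1.69 ± 0.664), Vegfc (0.882 ± 0.345) and Flt1 (0.535 ± 0.158) came next, each overlapping its neighbours in that order. Tek (0.202 ± 0.375), Angpt1 (0.201 ± 0.109) and Kdr (0.0722 ± 0.0621) were the lowest and overlapped one another. With the length of the longest transcript in place of all exons, the means of 3 neighbouring pairs changed order, with Vegfd (26.2) above Angpt2 (25.1), Flt1 (1.05) above Vegfc (0.882) and Angpt1 (0.245) above Tek (0.204). In Tgfbr1/2iSMCKO libraries Angpt2 stood apart from every other gene of the list at 85.7 ± 33.2 CPM per kb, and its lowest library, at 46.2, was above the highest Vegfd library, at 36.0.

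**Figure D1:**
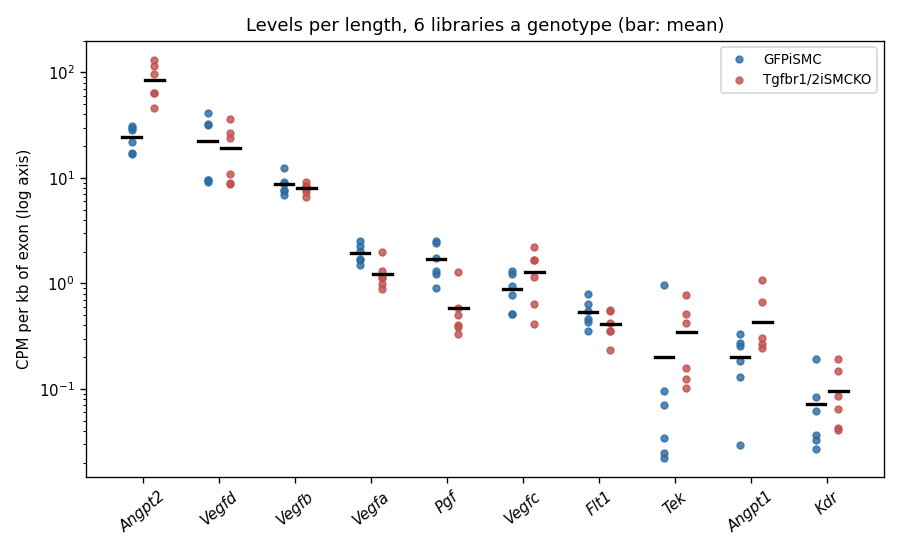
Level of each gene as CPM per kb of exon on a log axis, with 1 point a library (6 a genotype), blue for GFPiSMC and red for Tgfbr1/2iSMCKO, and a bar at the mean. Angpt2 is the highest gene in Tgfbr1/2iSMCKO at a mean of 85.7, and Kdr the lowest in both genotypes; the 1 Angpt1 library at 0 cannot be drawn on this axis but counts in the mean.

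The genotype comparison asked how loss of both TGF-β receptors changed these genes in SMCs, over both segments with segment as a term. Angpt2 rose and Pgf fell in Tgfbr1/2iSMCKO cells, and the other 8 genes did not pass the test. These 2 of 10 genes stand against 5.03% of all genes tested that passed an adjusted p of 0.05, and both also exceeded 2-fold, which 2.67% of all genes did together with that adjusted p. This test took the 2 segments of a mouse as separate libraries. With counts summed per mouse, Angpt2 passed the edgeR test (adjusted p = 0.0252) and Pgf did not (0.119). The median log2 fold change of the 10 genes was 0.16, and that of all genes tested was 0.04. In sorted bulk samples, a lower level in every cell and fewer cells that express a gene cannot be told apart.

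Angpt2 encodes the angiopoietin that is stored in and released by endothelial cells and is induced when vessels remodel. In GFPiSMC cells the 3 ascending/arch libraries had 109, 64.4 and 80.3 CPM and the 3 descending libraries 105, 114 and 62.4 CPM. In Tgfbr1/2iSMCKO cells the ascending/arch libraries had 234, 234 and 480 CPM and the descending libraries 354, 170 and 425 CPM. The lowest Tgfbr1/2iSMCKO library was above the highest GFPiSMC library, and replicate 3 was the highest of the Tgfbr1/2iSMCKO mice in both segments. Over both segments Angpt2 was 3.55-fold higher (log2 fold change 1.83 ± 0.26, SE, adjusted p = 0.000863). Of all genes tested, 4.39% separated the 6 libraries of one genotype from the 6 of the other in this way.

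The rise of Angpt2 was present in each segment, with a log2 fold change of 1.90 ± 0.39 in ascending/arch (adjusted p = 0.0310) and 1.75 ± 0.39 in descending cells (adjusted p = 0.0417). By edgeR it was the only gene of the 10 to pass within a segment, where 1.41% of all genes passed in ascending/arch and 1.72% in descending cells. The 2 changes differed by −0.15 ± 0.53 on the log2 scale (adjusted p = 1.0). With each mouse left out in turn, Angpt2 stayed between 1.46 and 2.07 over both segments with an adjusted p of at most 0.0113, and with the 2 libraries of each mouse summed its adjusted p was 0.0252. Within segments, the calls depended on single libraries: leaving out GFPiSMC replicate 1, 2 or 3 or Tgfbr1/2iSMCKO replicate 3 gave an adjusted p of 0.0664, 0.155, 0.144 and 0.121 in ascending/arch, and leaving out GFPiSMC replicate 1, 2 or 3 or Tgfbr1/2iSMCKO replicate 1 or 3 gave 0.132, 0.0983, 0.139, 0.139 and 0.131 in descending cells.

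Angpt2 lies at chr8:18690263-18741562 on the minus strand (GRCm38), inside the gene Mcph1 on the plus strand. The library kit does not mark strand, so reads from the overlapping stretch cannot be told apart. Mcph1 had 158 to 475 counts a library where Angpt2 had 1552 to 14907, and its own log2 fold change was 0.69 (adjusted p = 0.0818).

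Beside the rise of Angpt2, the endothelial cadherin Cdh5 also rose, from 0 to 0.513 CPM in GFPiSMC to 0.497 to 2.71 CPM in Tgfbr1/2iSMCKO libraries (adjusted p = 0.0250), and 2 of the 6 GFPiSMC libraries held no Cdh5 count. In Tgfbr1/2iSMCKO libraries Angpt2 was 86.4 to 713 times Cdh5 in CPM. In GFPiSMC libraries it was 212 to 1200 times Cdh5, where a Cdh5 level below that of 3 counts was set to that level. Of the 15 endothelial markers tested, Cdh5 and Esam (an adhesion molecule of endothelial junctions, 26.1 ± 9.51 against 45.7 ± 16.1 CPM) rose and Erg (an endothelial transcription factor, 15.5 ± 4.25 against 7.06 ± 1.22 CPM) fell, beside 5.03% of all genes called. The median log2 fold change of the 15 was 0.84 beside 0.04 for all genes, with 12 of 15 above 0, and within descending cells it was 0.998 with 13 of 15 above 0. The 16 listed markers summed to 104 to 145 CPM in GFPiSMC and 114 to 192 CPM in Tgfbr1/2iSMCKO libraries. The 6 defining ones summed to 83.0 to 110 and 62.8 to 111 CPM. Without Pecam1, Erg and Esam, a choice made after their levels were seen, the other 13 summed to 6.41 to 21.4 and 10.1 to 33.8 CPM. The part of endothelial RNA in the Angpt2 result was not tested.

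Pgf, a VEGF family ligand that binds Flt1, fell in Tgfbr1/2iSMCKO cells. It lies at chr12:85166635-85177790 on the minus strand (GRCm38). GFPiSMC cells had 3.56, 5.08 and 2.64 CPM in the ascending/arch and 7.29, 7.08 and 3.82 CPM in the descending libraries. Tgfbr1/2iSMCKO cells had 1.72, 1.12 and 1.16 CPM in the ascending/arch and 0.952, 1.44 and 3.74 CPM in the descending libraries. Within each segment every Tgfbr1/2iSMCKO library was below every GFPiSMC library, but the descending library of Tgfbr1/2iSMCKO replicate 3 was above 2 of the ascending/arch GFPiSMC libraries. Here and for the genes below, a full separation of 3 libraries from 3 has a permutation p of 0.1 at best. How many of all genes tested separated 3 libraries from 3 was not counted.

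Over both segments Pgf was 2.88-fold lower (log2 fold change −1.53 ± 0.34, adjusted p = 0.0192). Within segments it was −1.49 ± 0.51 in ascending/arch (adjusted p = 0.242) and −1.56 ± 0.50 in descending cells (adjusted p = 0.205), neither of which passed alone, and the 2 values differed by −0.06 ± 0.72. The call was lost when the 2 libraries of each mouse were summed (adjusted p = 0.119) and without GFPiSMC replicate 1 (0.101) or 2 (0.118) or Tgfbr1/2iSMCKO replicate 1 (0.0658) or 2 (0.0837). Single libraries also ended it, with adjusted p of 0.0572 and 0.0508 without the descending library of GFPiSMC replicate 1 or 2, 0.0565 without the ascending/arch library of GFPiSMC replicate 2, and 0.0503 without that of Tgfbr1/2iSMCKO replicate 2. Within descending cells, Pgf passed when the library of Tgfbr1/2iSMCKO replicate 3 was left out (−2.33, adjusted p = 0.0462).

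Vegfa, the principal angiogenic factor, did not pass the test (chr17:46016993-46032369, minus strand). Its level was 6.34, 8.69 and 7.35 CPM in the ascending/arch GFPiSMC libraries and 7.13, 9.78 and 10.9 CPM in the descending ones. In Tgfbr1/2iSMCKO libraries it was 3.78, 4.80 and 4.22 CPM in ascending/arch libraries against 4.97, 8.53 and 5.57 CPM in descending cells. The groups did not overlap in ascending/arch and overlapped in descending cells through Tgfbr1/2iSMCKO replicate 2. The log2 fold change over both segments was −0.67 ± 0.20 (unadjusted p = 0.00552, adjusted p = 0.0832), with −0.81 ± 0.30 in ascending/arch and −0.54 ± 0.29 in descending cells. Its adjusted p was 0.0440 without Tgfbr1/2iSMCKO replicate 2, 0.0294 without the descending library of that mouse, and 0.0110 by DESeq2.

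The other VEGF ligands did not pass. Vegfb, which is linked to fatty acid handling and vessel survival, had 14.1 ± 3.23 CPM in GFPiSMC and 12.8 ± 1.45 CPM in Tgfbr1/2iSMCKO libraries (log2 fold change −0.12 ± 0.17, adjusted p = 0.836), with the highest value, from 522 counts, in the descending library of GFPiSMC replicate 1. Vegfd had a log2 fold change of −0.13 ± 0.14 (adjusted p = 0.755). Vegfc, the main driver of lymphatic growth, was more variable, at 1.25 to 3.21 CPM in GFPiSMC and 1.01 to 5.39 CPM in Tgfbr1/2iSMCKO libraries, with a log2 fold change of 0.48 ± 0.41 (adjusted p = 0.678). Vegfb and Vegfd rested on 275 to 522 and 537 to 2460 counts a library, and Vegfc, with the widest error of the 3, on 30 to 119 counts.

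**Figure D2:**
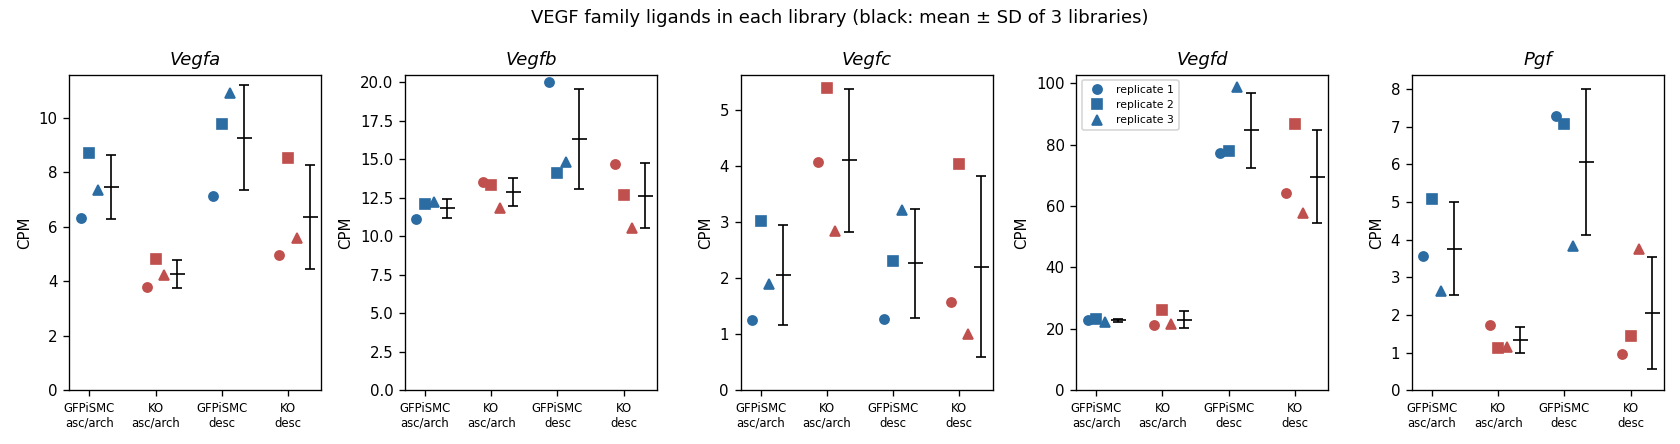
CPM of the 5 VEGF family ligands in each library by genotype and segment (asc/arch, ascending aorta and arch, desc, descending aorta, KO, Tgfbr1/2iSMCKO), with the mean ± SD of 3 libraries in black and the symbol giving the replicate number. Pgf is lower in every Tgfbr1/2iSMCKO library than in the GFPiSMC libraries of its segment, and Vegfd is 57.8 CPM or more in every descending library and 26.1 CPM or less in every ascending/arch library.

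Angpt1, the Tek agonist, rested on few counts in most libraries, with a median of 36 and a range of 0 to 173. It had 1.43, 1.72 and 0.950 CPM in ascending/arch libraries against 0.153, 1.33 and 0.683 CPM in descending GFPiSMC libraries. In Tgfbr1/2iSMCKO libraries it had 3.50, 1.26 and 5.57 CPM in ascending/arch libraries against 0, 1.40 and 1.59 CPM in descending cells, so the groups overlapped in both segments. The log2 fold change was 0.92 ± 0.69 (adjusted p = 0.624). In every library with an Angpt1 count, Angpt2 was 52.9 to 967 times Angpt1 per length, so that every such library held more transcript of Angpt2 than of Angpt1. An antisense gene that overlaps Angpt1, Gm17473, had 0 to 17 counts a library, and without strand its reads cannot be told apart from those of Angpt1 (chr15:42424723-42676977, minus strand).

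Among the receptors, Flt1 (VEGF receptor 1, chr5:147561604-147726011, minus strand) had the most counts, 77 to 303 a library. In GFPiSMC it had 5.79, 4.77 and 7.35 CPM in ascending/arch libraries against 8.67, 10.6 and 6.15 CPM in descending ones. Tgfbr1/2iSMCKO libraries had 7.58, 5.68 and 7.38 CPM in ascending/arch libraries against 3.19, 4.74 and 4.72 CPM in descending cells. The genotypes overlapped in ascending/arch, and in descending cells every Tgfbr1/2iSMCKO library was below every GFPiSMC library. With 3 libraries against 3, such a separation has a permutation p of 0.1 at best. The log2 fold change was −0.40 ± 0.27 over both segments (adjusted p = 0.566), 0.21 ± 0.31 in ascending/arch and −1.01 ± 0.31 in descending cells (unadjusted p = 0.00671, adjusted p = 0.177). The difference between segments was −1.21 ± 0.43 (unadjusted p = 0.0160, adjusted p = 1.0).

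Kdr (VEGF receptor 2) was barely detected, with 7 to 51 counts a library, 0.652 ± 0.560 CPM in GFPiSMC and 0.864 ± 0.558 CPM in Tgfbr1/2iSMCKO libraries (log2 fold change 0.45 ± 0.57, adjusted p = 0.817). With an error this wide, the test could not show a small difference in Kdr. Without Tgfbr1/2iSMCKO replicate 1 the log2 fold change of Kdr was −0.23.

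Tek, the angiopoietin receptor (chr4:94739289-94874976, plus strand), varied widely between mice. GFPiSMC libraries had 4.55, 0.446 and 0.330 CPM in ascending/arch libraries against 0.115, 0.105 and 0.161 CPM in descending cells, the latter resting on 3 or 4 counts each. Tgfbr1/2iSMCKO libraries had 0.583, 2.43 and 0.483 CPM in ascending/arch libraries against 3.64, 1.98 and 0.742 CPM in descending cells, or 15 to 88 counts. One GFPiSMC library, the ascending/arch library of replicate 1, was the highest of all 12, and in descending cells all Tgfbr1/2iSMCKO libraries were above all GFPiSMC libraries.

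Over both segments the log2 fold change of Tek was 1.42 ± 1.06 (adjusted p = 0.620), and without that one GFPiSMC library it was 2.80 ± 0.68 (adjusted p = 0.0407). Within descending cells it was 4.02 ± 1.14 (unadjusted p = 0.00402, adjusted p = 0.134), and DESeq2 called it at an adjusted p of 0.00430. The difference of the genotype effect between segments was 4.64 ± 1.48 on the log2 scale (unadjusted p = 0.00820, adjusted p = 1.0). In the same descending libraries all 16 endothelial markers summed to 135 to 145 CPM in GFPiSMC and 147 to 192 CPM in Tgfbr1/2iSMCKO cells, and the 6 defining ones to 89.6 to 110 and 82.6 to 102 CPM. Pecam1, Erg and Esam made up most of the sum of the 16, and without them, a choice made after their levels were seen, the other 13 markers summed to 6.41 to 10.8 CPM in GFPiSMC and 21.4 to 26.3 CPM in Tgfbr1/2iSMCKO cells. The adhesion molecule Icam2 had no count in the 3 GFPiSMC and 0.877 to 1.81 CPM in the 3 Tgfbr1/2iSMCKO libraries. Icam2 was named after its values were seen. The part of these markers in the Tek values was not tested.

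**Figure D3:**
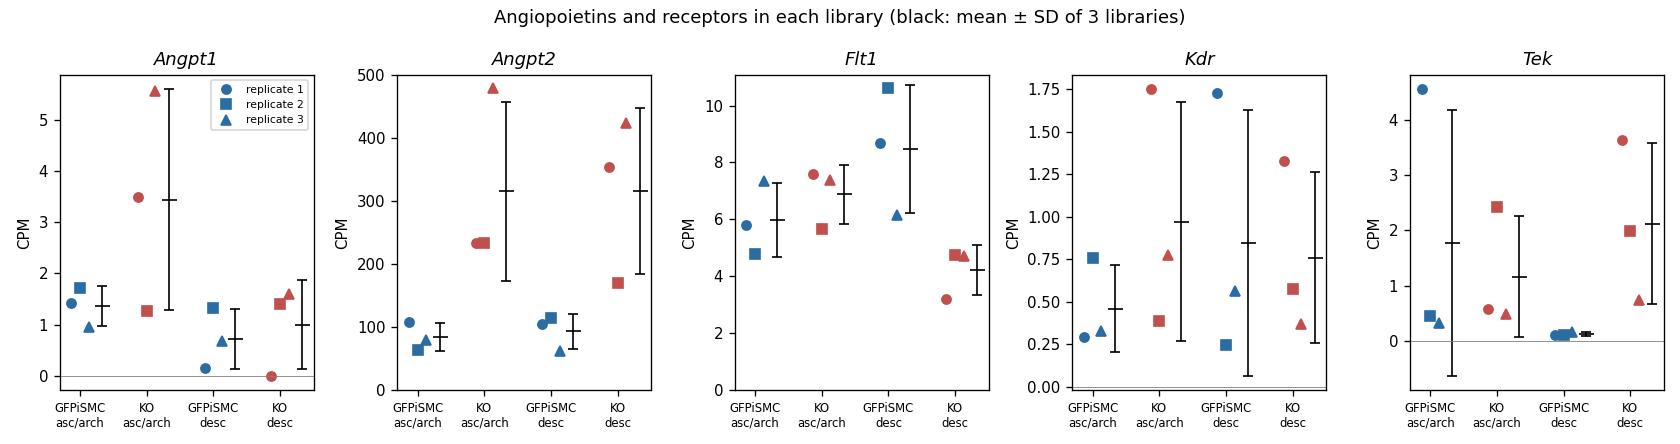
CPM of Angpt1, Angpt2, Flt1, Kdr and Tek in each library by genotype and segment, drawn as for the VEGF ligands. All 6 Tgfbr1/2iSMCKO libraries of Angpt2 lie at 170 CPM or more and all 6 GFPiSMC libraries at 114 CPM or less, and 1 GFPiSMC library of Tek lies at 4.55 CPM.

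**Figure D4:**
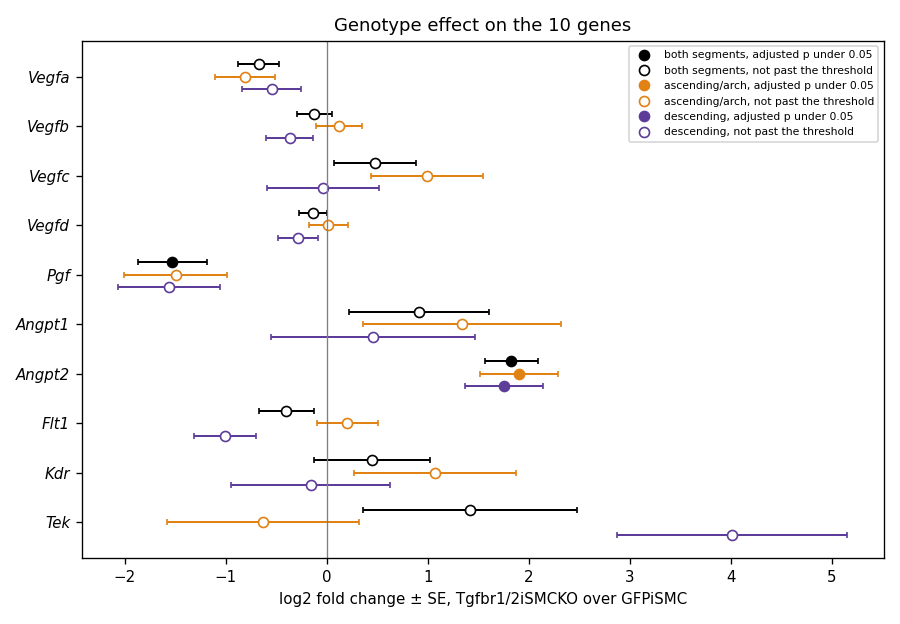
Log2 fold change ± SE of each gene, Tgfbr1/2iSMCKO over GFPiSMC, over both segments (black) and within ascending/arch (orange) and descending cells (purple), with filled points for an adjusted p under 0.05. Angpt2 is filled in all 3 comparisons, Pgf only over both segments, and the points of the 2 segments lie on opposite sides of 0 for 6 genes, Vegfb, Vegfc, Vegfd, Flt1, Kdr and Tek.

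No gene of the 10 passed the test of a difference between segments in the genotype effect, and 0% of all genes tested did by edgeR. At an unadjusted p under 0.05 there were 659 of the 22320 genes tested, Flt1 and Tek among them, and DESeq2 called 8 genes, none of the 10.

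The segment comparison asked which of these genes differ between descending and ascending/arch SMCs of the same genotype. Vegfd (chrX:164373378-164402650, plus strand), a ligand of the lymphatic receptor Flt4, was the 1 gene of the 10 to pass, and it was higher in descending cells of both genotypes. In GFPiSMC it had 22.8, 23.2 and 22.2 CPM in ascending/arch libraries against 77.2, 77.9 and 98.8 CPM in descending libraries. In Tgfbr1/2iSMCKO it had 21.2, 26.1 and 21.7 CPM in ascending/arch libraries against 64.1, 86.7 and 57.8 CPM in descending libraries. The segments did not overlap in either genotype, and the descending library was the higher in 3 of 3 mice of each.

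Vegfd was 3.72-fold higher in descending than in ascending/arch GFPiSMC cells (log2 fold change 1.90 ± 0.20, adjusted p = 0.00171), where 0.376% of all genes passed. In Tgfbr1/2iSMCKO cells it was 3.02-fold higher (1.60 ± 0.20, adjusted p = 0.00933), where 0.112% of all genes passed. The genotype effects in the 2 segments differed by −0.30 ± 0.28 (adjusted p = 1.0). The call was lost without GFPiSMC replicate 2 in GFPiSMC cells (adjusted p = 0.0520), and without Tgfbr1/2iSMCKO replicate 1 (0.205) or replicate 2 (0.0567) in Tgfbr1/2iSMCKO cells, while the log2 fold change stayed at 1.76 to 1.98 and 1.50 to 1.67 with each mouse left out.

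Fibroblast markers were lower in sum in descending cells, the opposite order to Vegfd, summing to 116 to 165 CPM in ascending/arch against 62.0 to 74.2 CPM in descending GFPiSMC libraries, and to 86.4 to 246 and 21.5 to 55.1 CPM in Tgfbr1/2iSMCKO libraries. Among these 8 markers only Lum, a matrix proteoglycan, passed, and it was lower in descending cells of both genotypes. Of all genes tested, 0.376% passed in GFPiSMC and 0.112% in Tgfbr1/2iSMCKO cells. In each genotype 2 of the 8 markers had a log2 fold change above 0. Their part in the Vegfd result was not tested.

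Vegfd starts at position 164373378 of chromosome X on the plus strand in the GENCODE annotation of GRCm38, and the stretch just before that start is shown because Vegfd was the gene that differed by segment. It is taken from RefSeq promoter windows (GRCm38.p6) and covers chrX:164373272-164373377, 106 bases 5′ to 3′ on the plus strand, with an E-box (CANNTG) in capitals.
Vegfd upstream: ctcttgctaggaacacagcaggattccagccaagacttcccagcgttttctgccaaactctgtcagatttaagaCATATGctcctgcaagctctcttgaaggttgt
Searched on both strands, the stretch held 1 E-box, CAGAC (the SMAD element) was not in it and neither was ACGTG (the core of the hypoxia response element). Of 32851 RefSeq windows cut to the same length, 38.0% held CANNTG, 20.8% CAGAC and 6.40% ACGTG. Angpt1 and Angpt2 had no entry in the promoter table.

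Other genes of the list did not differ between segments past the threshold. Vegfb was 11.8 ± 0.609 CPM in ascending/arch against 16.3 ± 3.23 CPM in descending GFPiSMC cells without overlap (log2 fold change 0.47 ± 0.23, adjusted p = 0.880), and in Tgfbr1/2iSMCKO cells the 2 segments had 12.9 ± 0.959 and 12.6 ± 2.07 CPM (SD, n = 3). Vegfa was higher in the descending library of 3 of 3 mice in each genotype, with log2 fold changes of 0.31 ± 0.29 and 0.58 ± 0.30 (adjusted p = 0.917 and 1.0). Angpt2 did not separate the segments in either genotype, with log2 fold changes of 0.15 ± 0.37 in GFPiSMC and 0.00 ± 0.37 in Tgfbr1/2iSMCKO cells. Tek was lower in descending GFPiSMC cells (−3.76 ± 1.13, unadjusted p = 0.00589, adjusted p = 0.404), and this value was −1.51 without both libraries of GFPiSMC replicate 1.

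**Figure D5:**
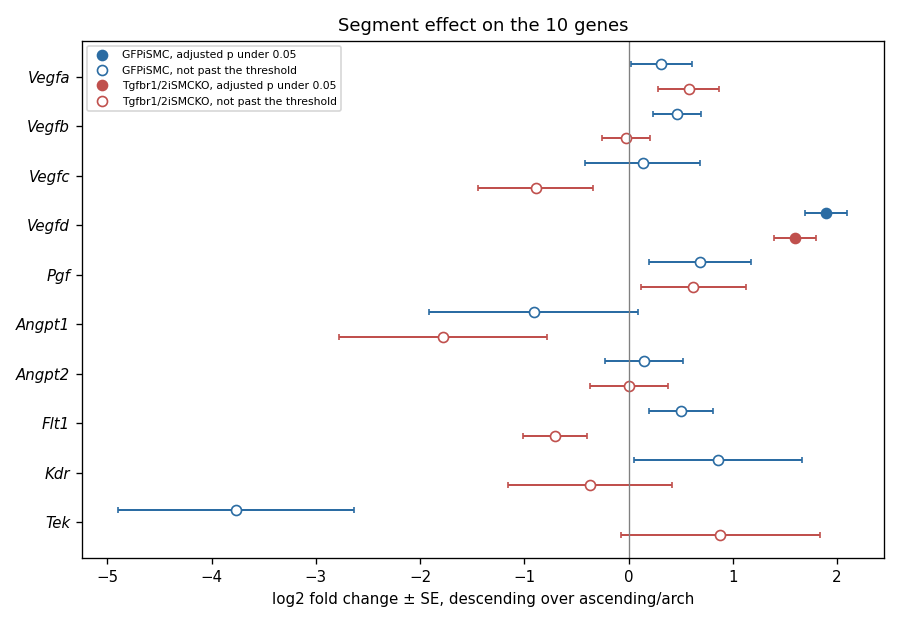
Log2 fold change ± SE of each gene, descending over ascending/arch, in GFPiSMC (blue) and Tgfbr1/2iSMCKO (red), with filled points for an adjusted p under 0.05. Vegfd is filled in both genotypes at 1.90 and 1.60, and no other gene is.

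The wider pathway was measured with 21 further receptors, coreceptors, ligands and modulators of VEGF and angiopoietin signalling. Of these, 20 passed the filter on low counts and none passed the genotype test over both segments by edgeR, against 5.03% of all genes. Their median log2 fold change was −0.08. The neuropilin Nrp1, a coreceptor of Vegfa, had 27.5 to 52.8 CPM in GFPiSMC and 38.6 to 111 CPM in Tgfbr1/2iSMCKO libraries (0.81 ± 0.27, adjusted p = 0.120), and Thbs2, an inhibitor of angiogenesis, had 68.4 to 92.3 and 31.1 to 80.3 CPM (−0.66 ± 0.21, adjusted p = 0.103). The Vegfc and Vegfd receptor Flt4 had 0.365 ± 0.195 and 0.582 ± 0.419 CPM, and Tie1, the partner of Tek, 0.512 ± 0.442 and 0.774 ± 0.552 CPM. None of these 20 passed a segment comparison in either genotype.

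Oxygen sensing is a main control of Vegfa, and 2 of its 9 listed genes fell in Tgfbr1/2iSMCKO cells while none rose, beside 5.03% of all genes called. The median log2 fold change of the 9 genes was 0.02, with 5 of 9 above 0, beside 0.04 for all genes tested. Hif1a, the hypoxia-inducible factor subunit, had 315 ± 44.4 CPM in GFPiSMC and 192 ± 40.8 CPM in Tgfbr1/2iSMCKO libraries (log2 fold change −0.71 ± 0.15, adjusted p = 0.0105). Egln1, the prolyl hydroxylase that marks Hif1a for degradation, had 102 ± 11.0 and 65.3 ± 8.29 CPM (−0.64 ± 0.12, adjusted p = 0.00599). For both, every Tgfbr1/2iSMCKO library was below every GFPiSMC library, and 4.39% of all genes tested separated the genotypes in one direction or the other. Epas1, the other main hypoxia-inducible subunit, had 208 ± 48.1 and 157 ± 57.4 CPM (adjusted p = 0.456).

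Of 17 hypoxia response genes tested, 2 rose and 1 fell, beside 5.03% of all genes called. The rises were of the glycolytic regulators Pdk1, at 12.8 ± 2.07 against 21.5 ± 2.88 CPM (0.75 ± 0.17, adjusted p = 0.0164), and Pfkfb3, at 2.29 ± 1.42 against 11.5 ± 7.92 CPM (2.34 ± 0.51, adjusted p = 0.0152). P4ha1, a collagen prolyl hydroxylase, fell from 170 ± 39.3 to 71.0 ± 22.5 CPM (−1.26 ± 0.22, adjusted p = 0.00359). The list's median log2 fold change was 0.24 beside 0.04 for all genes tested, with 14 of 17 above 0. Adm, Slc2a1 and Ldha, which are commonly read with Vegfa, had log2 fold changes of 0.01, 0.18 and −0.09. Their adjusted p were 0.994, 0.841 and 0.883.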

How the data were processed

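The authors trimmed the reads, aligned them with HISAT2 to the mouse genome (mm10, the GRCm38 build) and assigned them to GENCODE genes with StringTie. The deposited values are whole-number read counts per gene with no normalization. Group and mouse were taken from the labels, which name the mouse and segment of each library, and no column was left out. The 10 genes and all comparison lists were chosen with earlier results of these data known.

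Symbols and positions came from the GENCODE annotation supplied here, of a later release on the same build, matched by gene identifier (52489 of 52636 genes). Counts were filtered with filterByExpr over the 4 groups, scaled with TMM and tested with the edgeR (4.0.16) quasi-likelihood F test. The genotype effect over both segments used segment and genotype as terms, and all other comparisons came from group means of the same 12 libraries. P-values were adjusted by Benjamini-Hochberg over 22320 genes, with 0.05 as the threshold. The SE is the log2 fold change divided by the square root of F. CPM used TMM-scaled library sizes. The 2 segments of a mouse entered as separate libraries, which leaves 3 mice a genotype, and the test with counts summed per mouse is given where it ended a call. The correlation of deviations between the 2 libraries of a mouse was −0.239 to 0.659 over 9201 genes, and pairing by mouse comes from the labels.

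All genes of the list were named, and from each other list those with an adjusted p under 0.05 for genotype, at most 6, with the defining endothelial markers. One gene of the TGF-β response list is not reported here. Nrp1, Thbs2, Flt4, Tie1, Epas1, Adm, Slc2a1, Ldha Icam2 and, for segment, Lum were named after their values were seen. Likeness used the root mean square difference of centred log2 CPM over 12 libraries for genes averaging 100 counts or more. Alternatives were DESeq2 (1.42.0), limma-voom (3.58.1) with mouse as a random effect, other scalings and filters, counts divided by 2, a test against a 2-fold change, blocks, and each mouse or library left out. The code was tested on simulated data. Figures were drawn with matplotlib.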

Additional observations from a re-analysis of the deposited data

How the results depend on the processing

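For genotype over both segments, 2 of the 10 genes passed. The count was 1 with counts summed per mouse, 0 in the test against a 2-fold change (Angpt2 at an adjusted p of 0.0911), and 1 to 3 with a mouse or library left out. Within ascending/arch and within descending cells 1 passed, and 0 to 1 with a library left out. Without the descending library of Tgfbr1/2iSMCKO replicate 3, the gene that passed in descending cells was Pgf (−2.33, adjusted p = 0.0462) and not Angpt2. With the segment fitted alone and the replicate number as a block, 0 passed in either segment (Angpt2 at 0.0556 and 0.382), and 0 did in descending cells fitted alone without the block (0.0790). DESeq2 called 4 in descending cells, where Pgf (0.0495), Flt1 (0.0287) and Tek joined Angpt2, and 2 for segment in GFPiSMC, where Tek (0.0209) joined Vegfd. It also called more of all genes, 4.06% in descending cells and 1.28% for segment in GFPiSMC, where edgeR called 1.72% and 0.376%. Each segment comparison gave 0 to 1 with a mouse left out. Replicate numbers do not pair the genotypes (correlations of −0.527 to 0.214); over both segments with them as a block, Angpt2 was 1.76 (adjusted p = 0.00251) and Pgf −1.52 (0.0489). The block by mouse, for segment, kept Vegfd at 1.89 (0.0100) and 1.58 (0.0297), and blocks ended no other call. Without TMM scaling the median of all genes moved from 0.04 to 0.16 and the calls from 402 higher and 721 lower to 699 and 505, Vegfb turned to 0.0035, and Angpt2 and Pgf kept direction and call. Kdr turned to −0.23 without Tgfbr1/2iSMCKO replicate 1 and reached 1.00 with another library left out. The causes were not tested. Over the alternatives, Angpt2 for genotype ranged from 1.46 to 2.07 and Pgf from −1.86 to −1.32. Per length of the longest transcript, 3 neighbouring pairs changed order in GFPiSMC: Vegfd (26.2) passed Angpt2 (25.1), Flt1 (1.05) Vegfc (0.882) and Angpt1 (0.245) Tek (0.204). Genes under about 50 counts a library (Kdr, Tek, most of Angpt1) had errors too wide to show small changes, and intervals between these libraries cover 3 mice a genotype.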

Other observations

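The genes whose levels over the 12 libraries followed Angpt2 most closely were Fam13a, Itih4 and Klhdc8b, at a root mean square difference of 0.314, 0.317 and 0.325 on the centred log2 scale, where Angpt2 itself varied by 0.996. For Pgf they were P3h2 (0.482), Hsph1 (0.494) and Kank4 (0.506), against 0.994 for Pgf itself. These are descriptions over the same 12 libraries, among 11149 and 11150 genes.

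Of 4 pericyte markers tested, 1 fell and 1 rose with genotype, beside 5.03% of all genes called. Rgs5, a regulator of G protein signalling in mural cells, had 2340 to 4920 CPM in GFPiSMC and 829 to 2190 CPM in Tgfbr1/2iSMCKO libraries (log2 fold change −1.52 ± 0.21, adjusted p = 0.000701 by edgeR). Kcnj8, a subunit of the ATP-sensitive potassium channel, had 32.5 to 87.0 and 95.7 to 187 CPM (adjusted p = 0.00616). For both genes the genotypes did not overlap, as for 4.39% of all genes tested.

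Among markers of further cell types, Serpinf1, one of 8 fibroblast markers and an inhibitor of angiogenesis, fell from 24.1 ± 10.7 to 7.58 ± 3.75 CPM (adjusted p = 0.00646), and Actc1, one of 5 cardiomyocyte markers tested, rose from 1.42 ± 1.10 to 24.2 ± 24.8 CPM (adjusted p = 0.00161). None of the tested lymphatic endothelial (5), macrophage and leukocyte (7), adipocyte (2), mesothelial (5), nerve and Schwann cell (2) or SMC (7) markers passed for genotype by edgeR. Of all genes tested, 5.03% passed for genotype.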
